A study of Mus musculus with 61 samples.

Results

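Human genetic studies have linked a set of genes to glaucoma, the group of diseases in which retinal ganglion cells and their axons are lost. The mouse orthologs of 8 of these genes, Optn, Tbk1, Atxn2, Gas7, Tmco1, Abca1, Cav1 and Six6, were followed by RNA sequencing across the 5 groups of mice described here. They were chosen by name, as orthologs of genes known from human genetics, and all 8 were among the 15149 genes analysed. The cells came from mouse retina and were sorted as positive for Thy1.2, a surface antigen of retinal ganglion cells, and negative for Cd11b, Cd11c, Cd34, Cd45.2 and GFAP. The labels name them retinal ganglion cells and say that the eyes showed no glaucomatous loss of axons. DBA/2J mice carry mutations in Gpnmb and Tyrp1 and develop inherited glaucoma with age, and D2-Gpnmb+ mice have the same background, Tyrp1 included, with a working Gpnmb allele and serve as controls. Mice drinking plain water gave 10 libraries per strain at 4 months. At 9 months DBA/2J gave 25 such libraries and D2-Gpnmb+ gave 9. A further 7 libraries came from 9-month DBA/2J mice given nicotinamide, a precursor of the cofactor NAD, at 500 mg per kg per day. Nothing in the labels ties each library to its own animal, and p-values therefore rest on library-to-library spread, part of which may be technical.

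Optineurin, the product of OPTN, is a receptor that brings ubiquitin-tagged cargo such as damaged mitochondria to autophagosomes, and the kinase TBK1 phosphorylates it. Changes in either human gene are found in families with normal-tension glaucoma. The other 6 genes come from association studies of open-angle glaucoma, eye pressure or the optic disc. ATXN2 encodes an RNA-binding protein of stress granules, GAS7 an F-BAR protein of the neuronal cytoskeleton, TMCO1 a calcium channel of the endoplasmic reticulum, ABCA1 the transporter that passes cholesterol out of cells, CAV1 the coat protein of caveolae, and SIX6 a homeobox transcription factor of the developing eye.

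Libraries held 5133114 to 19501444 reads, with a median of 9730486, and each member had 95 to 3577 reads in every library. Values are normalised read counts on the scale the authors deposited. The columns of the deposited table form 3 blocks of 10, 18 and 33 libraries, whose counts per group match 3 series of sample numbers in the labels, and no source used here explains the blocks. The 9-month water libraries of DBA/2J and D2-Gpnmb+ number 6 and 4 in block 1, 16 and 2 in block 2, and 3 and 3 in block 3, which also has every 4-month and nicotinamide library. Age and nicotinamide can therefore be told apart from the block only through the 3 DBA/2J and 3 D2-Gpnmb+ water libraries of 9 months in block 3. Thy1 was present in every library, at 7.62 to 84.1, and Rbpms, another ganglion cell marker, at 0.860 to 23.9, while the ganglion cell transcription factor Pou4f1 was at 0 in 21 libraries. Markers of other retinal cells were high: in DBA/2J at 4 months the median sum was 7338 for 15 rod genes, 8903 for 14 bipolar cell genes and 2632 for 14 Müller glia and astrocyte genes, against 486 for 15 ganglion cell genes. At 4 months Gpnmb itself stood at 3.69 to 14.5 in DBA/2J, below the 34.7 to 130 of D2-Gpnmb+, but the strains overlapped at 9 months, at 8.39 to 78.3 and 11.9 to 83.5. In such sorted bulk samples, fewer cells of a type and less RNA per cell cannot be told apart.

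All 8 genes were expressed at moderate to high levels. Per kilobase of exon, Cav1 was the highest, at 20.4 ± 15.8 (mean ± SD, n = 61 libraries), followed by Six6 at 11.6 ± 3.5, Tbk1 at 11.1 ± 2.7 and Abca1 at 10.1 ± 2.7. Optn at 7.40 ± 3.52, Atxn2 at 7.11 ± 1.15 and Gas7 at 7.06 ± 3.23 were close to each other, and Tmco1 was the lowest at 4.96 ± 1.36. Their mean levels lay between the 65.3 and the 92.3 percentile of the genes with a length. Neighbours in this order were not separated library by library: Cav1 exceeded Six6 in 38 of 61 libraries, Six6 exceeded Tbk1 in 32, Optn exceeded Atxn2 in 22 and Atxn2 exceeded Gas7 in 37. The clearest steps were Tbk1 over Abca1 in 44, Abca1 over Optn in 45 and Gas7 over Tmco1 in 42 libraries. Relative to its own mean, Cav1 was the most variable, with a coefficient of variation of 77.6%, and Atxn2 the least, with 16.1%. The lengths are unions of all annotated exons, and that of Atxn2, 15689 bases, is the longest of the 8.

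**Figure D1:**
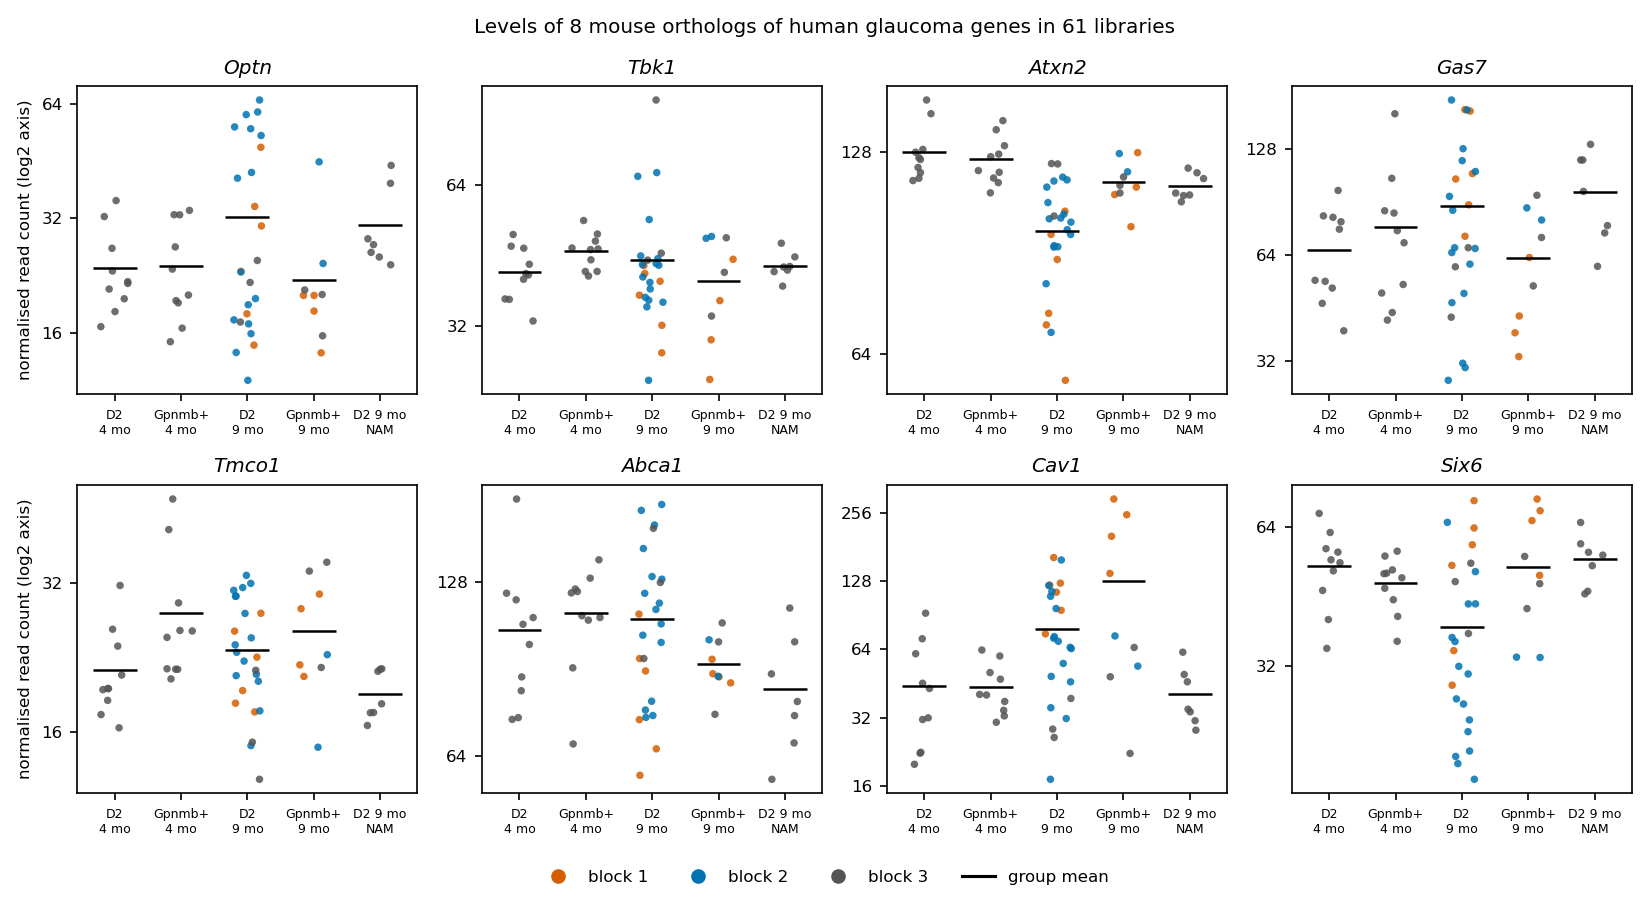
Normalised read count (vertical log2 axes) of each gene in the 61 libraries by group (horizontal axis), 1 point per library coloured by block, with a line at the group mean. Atxn2 in 9-month DBA/2J lies mostly below the 4-month range, Cav1 is highest in block 1, and Optn splits widely in the block 2 libraries of 9-month DBA/2J.

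Between 4 and 9 months in DBA/2J, Atxn2 and Six6 fell and no member rose. That is 2 of 8 members past an adjusted p of 0.05 by limma, where 22.4% of the 13587 genes tested passed in either direction and 13.2% passed as lower, so the members' share was close to that of all genes. The members' median log2 fold change was 0.08, beside 0.02 for all genes. Neither fall was called within block 3, where 3 libraries of 9 months stand against 10 of 4 months: 0 of 8 members passed limma's test, 1 had an unadjusted p under 0.05, and 0.263% of all genes passed. With block as a covariate the fold changes rest on the same block 3 libraries, so that fit is not a second check. Its count was 0 of 8, with 1 at an unadjusted p under 0.05 and 0.0589% of genes called. In tests on the recovered reads, edgeR and DESeq2 called Atxn2 and Cav1, the latter higher, in place of Atxn2 and Six6, with 23.3% and 27.3% of genes called.

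In D2-Gpnmb+ mice no member passed limma's test between 4 and 9 months. Of the 8, 2 had an unadjusted p under 0.05, and 0.0232% of 12910 genes passed. edgeR and DESeq2 each called 1 member, Cav1, as higher at 9 months, among 11.6% and 16.4% of all genes. Whether the age difference itself differed between the strains was tested as an interaction, which called 0 of 8 members by limma (2 at an unadjusted p under 0.05, 0.375% of genes called) and 0 by edgeR and DESeq2, with 0.297% and 2.07% of genes called. Within block 3 limma called 0 of 8 in the interaction, with 1 at an unadjusted p under 0.05 and 0.0774% of genes called. The 2 age comparisons share no libraries with each other, but each leans on block 3 for its 4-month side and on blocks 1 and 2 for most of its 9-month side.

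No member passed a test between the strains. At 4 months, where all 20 libraries are of block 3, limma called 0 of 8 members, 1 had an unadjusted p under 0.05, and 0.25% of 12804 genes passed. edgeR and DESeq2 also called 0, with 0.281% and 1.87% of genes called. At 9 months limma called 0 of 8, with 2 at an unadjusted p under 0.05 and 0.0218% of genes called, and edgeR and DESeq2 again called 0, with 0.08% and 2.31% of genes called. Within block 1 alone, however, the strains did differ in Gas7 and Cav1, which are described below.

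Nicotinamide given to 9-month DBA/2J mice was followed by no called change in any member by limma, although 15.1% of 13925 genes passed. Of the 8, 4 had an unadjusted p under 0.05. edgeR and DESeq2 each called Cav1 as lower, with 16.3% and 21.1% of genes called. Against the 3 water libraries of block 3, 0 of 8 members passed by limma, 4 had an unadjusted p under 0.05, and 0.00749% of genes passed.

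**Figure D2:**
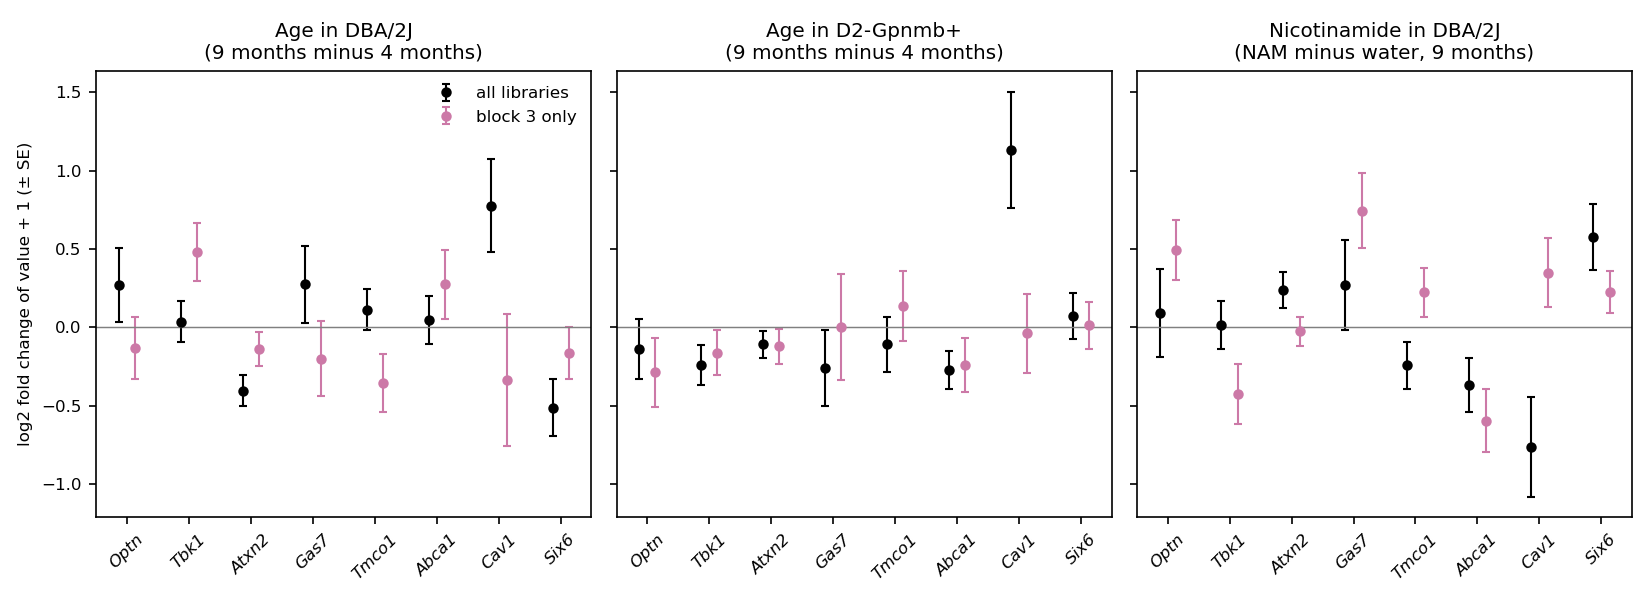
Log2 fold change of the value plus 1 with its SE (vertical axis) for each gene (horizontal axis) in 3 comparisons, over all libraries in black and within block 3 in pink. With age in DBA/2J, the pooled differences of Atxn2 and Six6 are nearer to 0 within block 3 and that of Cav1 is of opposite sign.

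Optn is located at chr2:5020642-5064051 on the minus strand of GRCm38 and overlaps an antisense transcript, 4930551O13Rik. Its level ran from 16.6 to 35.6 with a median of 21.7 in DBA/2J and from 15.2 to 33.6 with a median of 21.8 in D2-Gpnmb+ at 4 months. At 9 months it ran from 12.01 over a median of 23.2 to 65.5 in DBA/2J, and from 14.2 over 20.1 to 45.03 in D2-Gpnmb+. With nicotinamide it ran from 24.2 over 27.3 to 44.1. The spread thus widened in 9-month DBA/2J, where 9 of 25 libraries lay above and 4 below the 4-month range, and 8 of the 9 high ones were of block 2. The 3 DBA/2J libraries of 9 months in block 3 read 21.7, 17.1 and 24.8, inside the 4-month range. The log2 fold change with age in DBA/2J was 0.27 ± 0.24 (SE, adjusted p = 0.431 by limma), and that with nicotinamide 0.09 ± 0.28 (adjusted p = 0.855).

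Optn varied together with rod photoreceptor genes. Over all 61 libraries the genes with the highest Spearman correlation to it were Rp1, a protein of the rod outer segment, at 0.88, and Pde6b and Cnga1, the phosphodiesterase subunit and channel subunit of rod phototransduction, each at 0.86. Over the 33 libraries of block 3 they were Pde6b at 0.88, Rp1 at 0.85 and the chromatin protein gene Hmgb2 at 0.81. The genes compared were measured in the same libraries, which differ in depth and cell makeup, and the values are descriptions. Among the 20 libraries of 4 months, with strain means removed, Optn rose with the sum of the 15 rod markers (Pearson r = 0.726 and Spearman rho = 0.758 on the log2 scale, adjusted p = 0.0143 and 0.00965 by a permutation test within strain over 72 pairs of member and marker list). Without the 2 libraries farthest from the median rod sum r was 0.703. The 16 DBA/2J libraries of block 2 fell into 7 with rod sums of 3502 to 10458 and 9 with 20493 to 75071, and Optn was at 12.01 to 19.7 in the former and 23.1 to 65.5 in the latter. Within the 9, r was 0.802 (exact permutation p = 0.0245, adjusted over 2 sets 0.049) with rho = 0.55 (exact p = 0.133, adjusted 0.133), and r was 0.413 without the 2 farthest libraries, so the relation there rests on those. Within the 7, r was 0.582 (exact permutation p = 0.215, adjusted 0.215) and rho = 0.821 (exact p = 0.0341, adjusted over 2 sets 0.0683), and r was 0.416 without the 2 farthest. Over the 16 libraries Optn also fell as the bipolar cell markers rose (r = -0.798, rho = -0.768, adjusted p = 0.00432 and 0.0105 by a permutation test). The bipolar sums did not overlap between the 7 and the 9 libraries either, and this relation was not tested within them. At 4 months Optn and the bipolar cell markers did not pass (r = -0.605, rho = -0.508, adjusted p = 0.0605 and 0.17 by a permutation test). The rod transducin gene Gnat1 was never at 0 and ran from 217 to 21608.

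The 250 bases before the annotated start of Optn and of its rod partner Cnga1 are shown because both hold the letters TAATCC, the core recognised by the photoreceptor homeobox factor CRX and its relative OTX2. The match is in capitals, and the sequences are from RefSeq, build GRCm38.p6, both on the minus strand, for chr2:5064118-5064367 and chr5:72642753-72643002.
Optn: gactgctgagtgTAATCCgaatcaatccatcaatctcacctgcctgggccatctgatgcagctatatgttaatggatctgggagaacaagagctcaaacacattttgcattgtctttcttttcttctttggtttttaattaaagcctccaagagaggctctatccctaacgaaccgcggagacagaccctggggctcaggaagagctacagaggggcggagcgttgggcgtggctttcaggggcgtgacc
Cnga1: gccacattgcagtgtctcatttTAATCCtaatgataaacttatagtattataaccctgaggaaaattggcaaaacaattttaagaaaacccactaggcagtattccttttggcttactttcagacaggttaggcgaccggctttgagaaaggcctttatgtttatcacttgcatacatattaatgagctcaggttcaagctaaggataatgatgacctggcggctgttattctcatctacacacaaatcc
The first base of the match lies 238 bases before the start in Optn and 228 in Cnga1. TAATCC on either strand was present in 6.25% of the 32851 promoter windows searched, in 1 of the 7 members with a window (Optn), and not in the window of Pde6b. The windows searched are not the same as the stretches shown: that of Optn starts at chr2:5064068 rather than 5064118. GGGCGG, the GC box, was searched as well and was present in 32.7% of windows, and TATAAA, the TATA box, in 12.4%. These matches describe the letters and not binding.

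Tbk1, at chr10:121546455-121586787 on the minus strand, was among the steadiest of the 8 genes. At 4 months it ran from 32.8 to 50.2 with a median of 41.3 in DBA/2J and from 40.9 to 53.7 with a median of 46.7 in D2-Gpnmb+. At 9 months the range was from 24.6 over 41.4 to 97.0 in DBA/2J and from 24.7 over 41.7 to 49.7 in D2-Gpnmb+, and with nicotinamide from 39.0 over 42.8 to 48.1. The groups overlapped throughout, and the log2 fold change with age was 0.04 ± 0.13 (SE, adjusted p = 0.863 by limma) in DBA/2J and -0.24 ± 0.13 (adjusted p = 0.206) in D2-Gpnmb+. Within block 3 the DBA/2J value was 0.48 ± 0.18 (adjusted p = 0.322), with 1 library of 9 months at 97.0 and the other two at 45.8 and 44.2, inside the 4-month range. The genes most like it over 61 libraries, Phip, A730020E08Rik and Lonrf1, reached a Spearman correlation of only 0.60, 0.57 and 0.55. Optn and Tbk1, which work together in autophagy, did not pass a test of correlation in either set of libraries.

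Of 38 tested autophagy receptors and TBK1 partners, 6 rose and 5 fell with age in DBA/2J, beside 22.4% of all genes called, with a median log2 fold change of 0.06 beside 0.02 for all genes. The members with the smallest adjusted p all fell: Rb1cc1, a scaffold of the kinase complex that starts autophagy, by 0.56 ± 0.11 (adjusted p = 8.15e-04 by limma), Calcoco1, an autophagy receptor, by 0.70 ± 0.17 (adjusted p = 0.00264), and Cyld, a deubiquitinase, by 0.32 ± 0.09 (adjusted p = 0.00632). With nicotinamide 3 rose and 1 fell, beside 15.1% of all genes called: Calcoco1 was higher by 0.79 ± 0.19 (adjusted p = 0.00416), Rb1cc1 by 0.51 ± 0.14 (adjusted p = 0.00952) and Pink1, the kinase that marks damaged mitochondria, by 0.50 ± 0.16 (adjusted p = 0.03). These 2 comparisons share the 25 water libraries. The call of Pink1 was kept in 2 of 7 limma fits that left out 1 nicotinamide library, at adjusted p of 0.0275 to 0.0783. Within block 3 limma called 0 genes of this and the other 7 pathway lists in each comparison, with 0 to 10 per list at an unadjusted p under 0.05, and Rb1cc1 differed there by -0.02 with age and -0.02 with nicotinamide.

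Atxn2, at chr5:121711337-121816493 on the plus strand, overlaps Sh2b3 and the antisense transcript Gm16552. At 4 months it ran from 116 to 153 with a median of 125 in DBA/2J and from 111 to 142 with a median of 123 in D2-Gpnmb+. By 9 months it ran from 58.4 over 100.5 to 123 in DBA/2J and from 99.0 over 114 to 128 in D2-Gpnmb+, and with nicotinamide from 108 over 111 to 121. In DBA/2J, 21 of the 25 libraries of 9 months lay below the whole 4-month range: 6 of 6 in block 1, 14 of 16 in block 2 and 1 of 3 in block 3, whose libraries read 122.7, 122.9 and 102.7. Over all libraries Atxn2 fell by 0.40 ± 0.10 on the log2 scale (SE, adjusted p = 0.00324 by limma), and the call held without any single 4-month library, at adjusted p of 0.00474 to 0.00917. Within block 3 the value was -0.14 ± 0.11 (adjusted p = 0.702). The 9-month DBA/2J means by block were 82.0 ± 17.3 (SD, n = 6), 100.0 ± 13.1 (n = 16) and 116.1 ± 11.6 (n = 3), beside 127.9 ± 12.2 (n = 10) at 4 months.

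In D2-Gpnmb+ the change of Atxn2 with age was -0.11 ± 0.09 (adjusted p = 0.394 by limma), and the difference between the strains in this change was -0.30 ± 0.13 (adjusted p = 0.324). That difference was called after scaling to total reads, at -0.67 (adjusted p = 0.0476), a scaling under which the median of all genes moved to -0.36. With nicotinamide Atxn2 differed by 0.24 ± 0.11 (adjusted p = 0.144), and all 7 treated libraries lay within the range of the 25 water libraries. The genes most like it were Pura, an RNA- and DNA-binding protein gene, at a Spearman correlation of 0.74, the chromatin gene Mll5 at 0.71 and Rfx7 at 0.68.

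Of 28 tested ataxin-2 partners and stress granule genes, 7 fell and 0 rose with age in DBA/2J, where 22.4% of all genes changed, and the median was -0.17. The 3 smallest adjusted p belonged to G3bp2, a core protein of stress granules, lower by 0.77 ± 0.14 on the log2 scale (adjusted p = 3.16e-04 by limma), the RNA-binding protein gene Ewsr1, lower by 0.33 ± 0.08 (adjusted p = 0.00322), and the RNA helicase gene Ddx3x, lower by 0.40 ± 0.11 (adjusted p = 0.0103). With nicotinamide 5 rose and 0 fell, near the 15.1% of all genes called, among them G3bp2 by 0.71 ± 0.17 (adjusted p = 0.00412), Ewsr1 by 0.43 ± 0.09 (adjusted p = 0.00201) and Ddx3x by 0.54 ± 0.13 (adjusted p = 0.00443). In block 3 the age values of these 3 were 0.16, -0.02 and 0.17, and the nicotinamide values -0.22, 0.12 and -0.02. Over the same groups, DBA/2J at 4 months, at 9 months and with nicotinamide, the median sum of amacrine and horizontal cell markers was 514, 100.0 and 723, and that of Müller glia and astrocyte markers 2632, 4263 and 2448. Their part in the result was not tested.

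Gas7, at chr11:67455437-67688990 on the plus strand, overlaps Glp2r and the antisense transcript Gm12301. It ran from 39.1 to 97.8 with a median of 65.2 in DBA/2J and from 41.9 to 162 with a median of 72.4 in D2-Gpnmb+ at 4 months. The 9-month values ran from 28.3 over 72.5 to 177 in DBA/2J and from 33.02 over 63.1 to 94.8 in D2-Gpnmb+, and with nicotinamide from 59.6 over 97.2 to 132. Of the 25 DBA/2J libraries of 9 months, 9 lay above and 3 below the 4-month range. The change with age was 0.27 ± 0.24 (adjusted p = 0.438 by limma) in DBA/2J and -0.26 ± 0.24 (adjusted p = 0.478) in D2-Gpnmb+. With nicotinamide it was 0.27 ± 0.29 (adjusted p = 0.547) over all libraries and 0.74 ± 0.24 (adjusted p = 0.169) within block 3.

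In block 1 the strains were fully apart for Gas7. The 6 DBA/2J libraries read 72.5, 109.2, 89.1, 165.9, 105.4 and 164.4, and the 4 D2-Gpnmb+ libraries 38.6, 33.02, 43.1 and 63.1. Gas7 was 1.36 ± 0.23 higher on the log2 scale in DBA/2J (SE, adjusted p = 4.27e-04 by limma), in a block where 12.3% of genes were called, and the call held without each library in turn, at 1.24 to 1.54. In block 3 the order was turned, with DBA/2J at 67.3, 59.4 and 42.7 and D2-Gpnmb+ at 71.9, 94.8 and 52.4, a difference of -0.35 ± 0.24 (adjusted p = 0.836) with overlapping groups. In block 2 the Gas7 means were 83.0 ± 46.2 (SD, n = 16) in DBA/2J and 84.0 ± 4.7 (n = 2) in D2-Gpnmb+. The difference between blocks 1 and 3 in the strain effect, a pair chosen after seeing the data, was 1.71 ± 0.37. Its adjusted p was 0.0549 by limma (0.0985% of genes called) and 0.0410 by edgeR (0.303% called). Without DBA/2J library 1, 3 or 27 or D2-Gpnmb+ library 6 it passed by limma, and over all libraries left out in turn the adjusted p ran from 0.0114 to 0.211. Between the strains in block 1 the rod marker sums also differed, at 8062 to 11476 in DBA/2J against 798 to 7580 in D2-Gpnmb+, as did the Müller glia and astrocyte sums, at 4002 to 8571 and 11428 to 16420, while bipolar sums overlapped at 3663 to 6364 and 4238 to 5201. Their part in the difference was not tested.

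**Figure D3:**
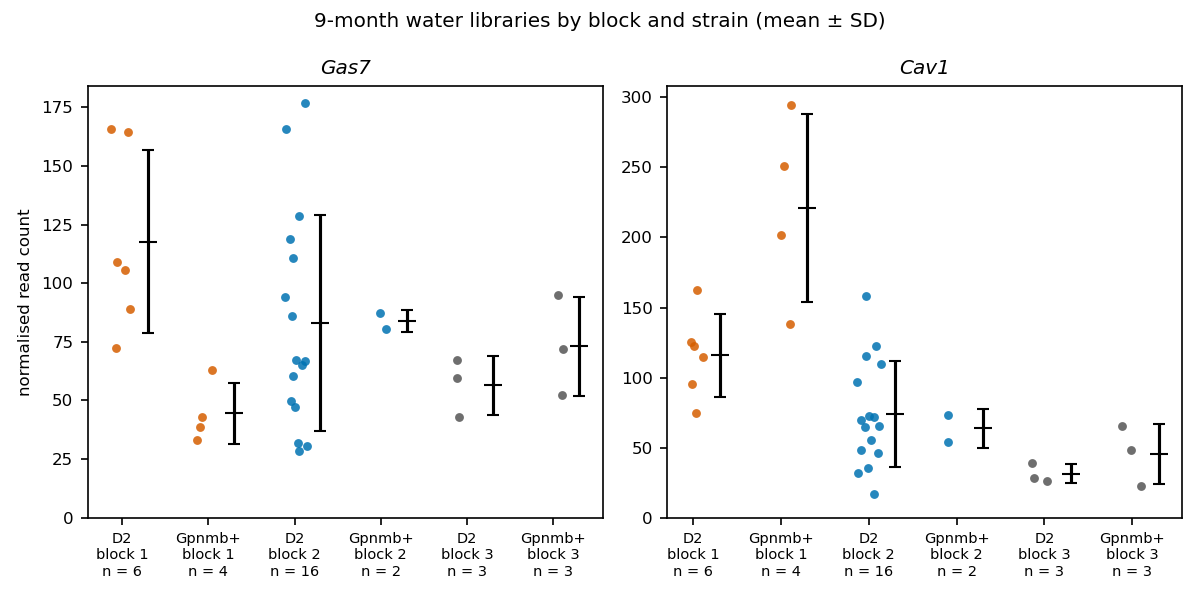
Normalised read count (vertical axes from 0) of Gas7 and Cav1 in the 9-month water libraries by block and strain, points for libraries and bars for mean ± SD. In block 1 all 6 DBA/2J libraries exceed all 4 D2-Gpnmb+ libraries for Gas7, and in block 3 the strains overlap.

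Gas7 moved against bipolar cell genes. Among the 20 libraries of 4 months it fell as the sum of the 14 bipolar cell markers rose (r = -0.794, rho = -0.847, adjusted p = 9e-04 and 0.00108 by a permutation test within strain over 72 pairs), and r was -0.854 without the 2 libraries farthest from the median. Among the 16 DBA/2J libraries of block 2, r was -0.885 and rho -0.903 (adjusted p = 3.6e-04 and 4.8e-04 by a permutation test), with r = -0.815 without the 2 farthest. The 7 of these libraries with lower rod sums had bipolar sums of 8636 to 15348, and the 9 with higher rod sums 5033 to 7559. These values of r therefore include the step between the 2 sets, and Gas7 was not tested against markers within either set. After scaling to total reads r was -0.470 at 4 months (adjusted p = 0.128) and -0.711 in block 2 (adjusted p = 0.0144). In those block 2 libraries Gas7 also rose with the rod markers (r = 0.804, rho = 0.741, adjusted p = 0.0036 and 0.0181 by a permutation test). At 4 months Gas7 and the rod markers did not pass (r = 0.565, rho = 0.516, adjusted p = 0.0988 and 0.17 by a permutation test). The genes most like Gas7 over 61 libraries were Pex5l, a trafficking subunit of HCN channels, and Fndc1, each at 0.86, and Tbc1d8 at 0.81. In block 3 Ppargc1a, the coactivator of mitochondrial biogenesis, was first at 0.87.

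Of 20 tested F-BAR and actin regulators related to Gas7, 3 rose and 1 fell with age in DBA/2J, near the 22.4% of all genes called. Named by their adjusted p were Wasf2 (0.58 ± 0.18, adjusted p = 0.0172 by limma) and Wasf3 (0.34 ± 0.12, adjusted p = 0.0377), which encode WAVE proteins of actin branching, and Fes (0.60 ± 0.22, adjusted p = 0.0458), an F-BAR tyrosine kinase at a mean of only 1.22 at 9 months. Within block 3 Wasf2 and Wasf3 were of opposite sign, at -0.04 and -0.08, and neither was called. With nicotinamide 0 rose and 3 fell, where 15.1% of all genes were called, and these were the same 3 genes: Wasf2 by 0.95 ± 0.21 (adjusted p = 0.00205), Wasf3 by 0.56 ± 0.14 (adjusted p = 0.00557) and Fes by 0.74 ± 0.26 (adjusted p = 0.0466). The call of Fes was kept in 0 of 7 limma fits that left out 1 nicotinamide library, at adjusted p of 0.0613 to 0.0960.

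Tmco1, at chr1:167308378-167333978 on the plus strand, ran from 16.3 to 31.6 with a median of 19.6 in DBA/2J and from 20.5 to 47.2 with a median of 25.2 in D2-Gpnmb+ at 4 months. At 9 months it ran from 12.9 over 22.7 to 33.1 in DBA/2J and from 14.9 over 22.9 to 35.2 in D2-Gpnmb+, and with nicotinamide from 16.5 over 18.3 to 21.5. The groups overlapped in every comparison over all libraries. Its strain difference at 4 months, -0.34 ± 0.14, had the smallest adjusted p of the 8 members there, 0.295 by limma. At 9 months within block 3, all 3 DBA/2J libraries, at 21.3, 12.9 and 15.3, lay below all 3 D2-Gpnmb+ libraries, at 35.2, 33.8 and 21.6, a difference of -0.83 ± 0.26 with an adjusted p of 0.704 and 0% of genes called. Within block 2 the sign was opposite, at 0.39 ± 0.28 (adjusted p = 0.974). The genes most like it over 61 libraries were 5730577I03Rik at 0.63, Gm4841 at 0.59 and Slc25a34 at 0.55, and in block 3 Dapl1 at 0.84 and Tulp3 at 0.80.

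Of 28 tested genes of calcium handling and the protein channel of the endoplasmic reticulum, 6 rose and 7 fell with age in DBA/2J, beside 22.4% of all genes called. Ryr1, a calcium release channel, fell by 1.87 ± 0.34 (adjusted p = 2.87e-04 by limma) from a mean of 7.11 to 1.23, Sec62, a part of the translocation machinery, fell by 0.49 ± 0.13 (adjusted p = 0.00509), and Ccdc47, a partner of TMCO1 at the translocon, fell by 0.56 ± 0.15 (adjusted p = 0.00743). With nicotinamide 5 rose and 3 fell, beside 15.1% of all genes called, with Ryr1 higher by 1.77 ± 0.34 (adjusted p = 6.95e-04), Ccdc47 higher by 0.64 ± 0.18 (adjusted p = 0.0124) and Sec61a1, the channel subunit, lower by 0.56 ± 0.15 (adjusted p = 0.00964). Within block 3 Ryr1 differed by -0.88 with age and 0.78 with nicotinamide, and Ccdc47 by 0.24 and -0.16, none called.

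Abca1, at chr4:53030787-53159895 on the minus strand, ran from 74.1 to 178 with a median of 104 in DBA/2J and from 67.2 to 140 with a median of 117 in D2-Gpnmb+ at 4 months. At 9 months values went from 59.3 over 108 to 174 in DBA/2J and from 75.6 over 88.8 to 109 in D2-Gpnmb+, and with nicotinamide from 58.4 over 79.5 to 115. The change with age was 0.05 ± 0.15 (adjusted p = 0.852 by limma) in DBA/2J and -0.27 ± 0.12 (adjusted p = 0.141) in D2-Gpnmb+. With nicotinamide it was -0.37 ± 0.17 (adjusted p = 0.141) and, within block 3, -0.60 ± 0.20 (adjusted p = 0.18), where the 3 water libraries read 158.2, 94.3 and 127.6. Both values were of the same sign and neither passed.

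Abca1 rose with the bipolar cell markers against which Gas7 fell. At 4 months r was 0.757 and rho 0.782 (adjusted p = 9e-04 and 0.00144 by a permutation test within strain), with r = 0.585 without the 2 libraries farthest from the median. In the 16 DBA/2J libraries of block 2 r was 0.769 and rho 0.724 (adjusted p = 0.00494 and 0.0224 by a permutation test), with r = 0.889 without the 2 farthest. The bipolar sums of these libraries did not overlap between the 7 with lower and the 9 with higher rod sums. The relation of Abca1 within either set was not tested. Kcnh5, a potassium channel gene, was most like it, at a Spearman correlation of 0.86 over 61 libraries and 0.88 in block 3, followed by Slc24a4 and Ank3, each at 0.82 over 61.

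Of 23 tested cholesterol efflux genes and targets of the sterol receptor LXR, Abca1 excluded, 11 rose and 2 fell with age in DBA/2J. That stood beside 22.4% of all genes called, and the median log2 fold change was 0.42. Abca7, a lipid transporter close to Abca1, rose by 0.68 ± 0.16 (adjusted p = 0.00331 by limma), Srebf1, the transcription factor of lipid synthesis, by 0.74 ± 0.19 (adjusted p = 0.00549), and Npc2, which carries cholesterol out of lysosomes, by 0.66 ± 0.18 (adjusted p = 0.00625). With nicotinamide 1 rose and 9 fell, beside 15.1% of all genes called, and the median was -0.50. Abca3, a lipid transporter, fell by 0.69 ± 0.15 (adjusted p = 0.0024) and Npc2 by 0.76 ± 0.20 (adjusted p = 0.00791), while Arl4c, an LXR target, rose by 1.26 ± 0.31 (adjusted p = 0.00557). In D2-Gpnmb+ the list had a median of 0.47 with age, 0 of 22 genes passing limma's test and 11 with an unadjusted p under 0.05, while edgeR called 10 and DESeq2 called 11, all higher. In block 3 the medians were -0.16 with age in DBA/2J and 0.14 with nicotinamide. Beside these changes, the Müller glia and astrocyte sums ran from 1680 to 4903 in DBA/2J at 4 months, 4002 to 8571, 1884 to 7020 and 604 to 1958 in its 9-month libraries of blocks 1, 2 and 3, and 1662 to 3105 with nicotinamide. Of 14 tested genes of that list 6 rose and 0 fell with age, and 0 rose and 4 fell with nicotinamide. Their part in the result was not tested.

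Cav1, at chr6:17306335-17341452 on the plus strand, overlaps the antisense transcript Gm15581. At 4 months it ran from 19.9 to 92.4 with a median of 37.5 in DBA/2J and from 30.5 to 63.6 with a median of 40.4 in D2-Gpnmb+. The range at 9 months was from 17.1 over 71.6 to 162 in DBA/2J and from 22.3 over 73.3 to 294 in D2-Gpnmb+, and with nicotinamide from 28.2 over 34.9 to 62.2. Above the 4-month range of their strain lay 5 of 6 DBA/2J libraries of block 1, 5 of 16 of block 2 and 0 of 3 of block 3, and 4 of 4, 1 of 2 and 1 of 3 D2-Gpnmb+ libraries. The age difference was 0.78 ± 0.29 (adjusted p = 0.0531 by limma) in DBA/2J and 1.13 ± 0.37 (adjusted p = 0.0827) in D2-Gpnmb+. By limma it passed in DBA/2J without 4-month library 7, 9 or 10 and in D2-Gpnmb+ without 9-month library 13 or 15, with adjusted p of 0.0273 to 0.118 and 0.0226 to 0.178 over the libraries left out. edgeR called both, at 0.83 (adjusted p = 0.0405) and 1.56 (adjusted p = 0.0167). Within block 3 the values were -0.33 ± 0.42 (adjusted p = 0.845) and -0.04 ± 0.25 (adjusted p = 0.999), where DBA/2J read 26.2, 28.5 and 38.9 and D2-Gpnmb+ 22.3, 65.2 and 48.5. With nicotinamide Cav1 differed by -0.76 ± 0.32 (adjusted p = 0.0966 by limma, and -0.95 with an adjusted p of 0.0409 by edgeR), and within block 3 by 0.35 ± 0.22 (adjusted p = 0.458).

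In block 1 Cav1 was lower in DBA/2J, whose 6 libraries read 162.5, 125.3, 122.8, 74.9, 114.3 and 95.1, than in D2-Gpnmb+, whose mean was 221 ± 67.0 (SD, n = 4) with a lowest library of 138 and a highest of 294. The groups overlapped in 1 DBA/2J library. The difference was -0.91 ± 0.21 (adjusted p = 0.005 by limma), it passed without each of the 10 libraries in turn, at -1.12 to -0.76, and edgeR gave -0.87 (adjusted p = 0.00912). Between blocks 1 and 3 the strain effect of Cav1 differed by -0.50 ± 0.41 (adjusted p = 0.737).

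Cav1 followed the markers of Müller glia and vessels closely. At 4 months its r with the 14 Müller glia and astrocyte markers was 0.888 and rho 0.856 (adjusted p = 9e-04 and 0.00108 by a permutation test within strain), with r = 0.825 without the 2 farthest libraries. In the 16 DBA/2J libraries of block 2 r was 0.943 and rho 0.971 (adjusted p = 2.4e-04 and 3.6e-04 by a permutation test), with r = 0.927 without the 2 farthest. With the 18 endothelial and pericyte markers r was 0.828 at 4 months (rho 0.783, adjusted p = 9e-04 and 0.00342) and 0.885 in block 2 (rho 0.915, adjusted p = 2.4e-04 and 3.6e-04 by a permutation test), and it was 0.791 and 0.840 without the 2 farthest. Cav1 is itself known from endothelium and Müller glia. In block 1 the endothelial and pericyte sums ran from 650 to 1351 in DBA/2J and from 1227 to 1606 in D2-Gpnmb+, above the 109 to 560 of the other DBA/2J water and nicotinamide libraries and the 149 to 514 of the other D2-Gpnmb+ libraries. The Müller glia and astrocyte sums of block 1 are given above with Gas7. The part of either in the differences of Cav1 was not tested. Gbe1, Abca8a and Cdon were most like Cav1, each at a Spearman correlation of 0.95 over 61 libraries. Of the 10 tested caveola genes, 0 passed limma's test with age in DBA/2J, 2 had an unadjusted p under 0.05, and edgeR called 0 and DESeq2 called 2, both higher, beside 23.3% and 27.3% of all genes. With nicotinamide limma called 0 with 2 at an unadjusted p under 0.05, while edgeR called 1 and DESeq2 called 2, all lower, beside 16.3% and 21.1% of all genes.

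**Figure D4:**
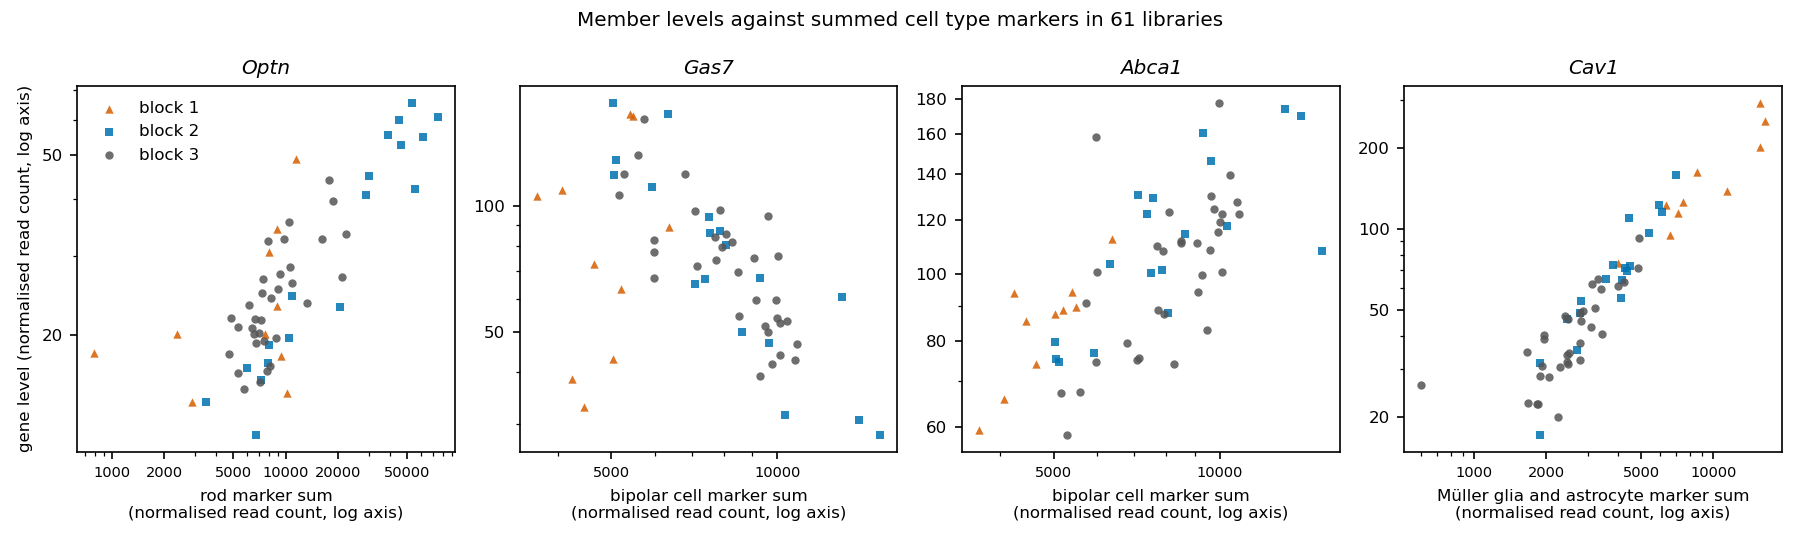
Normalised read count of Optn, Gas7, Abca1 and Cav1 (vertical log axes) against summed markers of a cell type (horizontal log axes) in 61 libraries, by block. Optn rises with rod markers and Cav1 with Müller glia and astrocyte markers, and Gas7 and Abca1 run opposite ways along the bipolar cell markers.

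Six6, at chr12:72939892-72944899 on the plus strand, overlaps 4930447C04Rik on the other strand. At 4 months it ran from 34.9 to 68.4 with a median of 53.9 in DBA/2J and from 36.2 to 56.7 with a median of 50.1 in D2-Gpnmb+. By 9 months the values ran from 18.2 over 36.1 to 72.9 in DBA/2J and from 33.4 over 50.2 to 73.5 in D2-Gpnmb+, and with nicotinamide from 45.8 over 55.6 to 65.4. Of the 25 DBA/2J libraries of 9 months, 12 lay below the 4-month range, 10 of them in block 2, and 1 lay above. Six6 fell by 0.51 ± 0.18 with age in DBA/2J (adjusted p = 0.0392 by limma). The call was kept in 3 of 10 fits that left out 1 library of 4 months, those without library 4, 5 or 6, with adjusted p of 0.0312 to 0.0769 over the 10, and edgeR and DESeq2 did not make it, at -0.45 (adjusted p = 0.0693) and -0.44 (adjusted p = 0.0701). Within block 3 the value was -0.16 ± 0.17 (adjusted p = 0.803), with libraries at 37.6, 53.4 and 48.7. The 9-month DBA/2J means by block were 51.9 ± 16.99 (SD, n = 6), 32.5 ± 13.1 (n = 16) and 46.6 ± 8.1 (n = 3), lowest in block 2. Below the 4-month range lay 2 of 6 libraries of block 1, 10 of 16 of block 2 and 0 of 3 of block 3. In block 2 the rod sums reached 75071. Its microglia and macrophage sums ran from 10.4 to 362, against 1.73 to 6.44 in DBA/2J at 4 months. Across its 16 DBA/2J libraries Six6 passed with neither sum. With rod markers r was -0.472 and rho -0.338 (adjusted p = 0.248 and 0.583 by a permutation test). With microglia and macrophage markers r was 0.143 and rho 0.153 (adjusted p = 0.857 and 0.875 by a permutation test). The part of these sums in the difference between blocks was not tested.

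With nicotinamide Six6 differed by 0.58 ± 0.21 (adjusted p = 0.0591 by limma) and within block 3 by 0.23 ± 0.13 (adjusted p = 0.424). In D2-Gpnmb+ the change with age was 0.07 ± 0.15 (adjusted p = 0.752), and the interaction was -0.59 ± 0.26 (adjusted p = 0.32). The genes most like Six6 were Ptprg at a Spearman correlation of 0.76, and Igsf3 and Lrrc4c at 0.70 each, and in block 3 Nptx1 at 0.72.

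Of 22 tested eye-field transcription factors and relatives of Six6, itself excluded, 1 rose and 3 fell with age in DBA/2J. This was near the 22.4% of all genes called. Pax6, the homeobox gene of eye formation that amacrine cells keep in the adult, fell by 1.21 ± 0.24 (adjusted p = 7.45e-04 by limma), from a mean of 107.5 ± 53.1 to 46.2 ± 21.5 (SD), and Six3, the closest relative of Six6, fell by 0.88 ± 0.19 (adjusted p = 0.00117). Rax, which is also active in photoreceptors, rose by 1.36 ± 0.33 (adjusted p = 0.0033), while within block 3 its value was -0.19 (adjusted p = 0.865). Pax6 was the 1 gene of all pathway lists called in the interaction, at -1.65 ± 0.35 (adjusted p = 0.0231 by limma), a call that was lost without D2-Gpnmb+ 9-month library 1 (adjusted p = 0.0577). With nicotinamide 4 rose and 3 fell, beside 15.1% of all genes called, with Pax6 higher by 1.34 ± 0.28 (adjusted p = 0.00134), Meis2 by 0.94 ± 0.25 (adjusted p = 0.00954) and Six3 by 0.77 ± 0.22 (adjusted p = 0.0167). Within block 3 Pax6 kept values of this size, -1.48 with age (adjusted p = 0.193), -1.55 in the interaction (adjusted p = 0.349) and 1.61 with nicotinamide (adjusted p = 0.12), none of them called. The sums of 12 amacrine and horizontal cell markers, Pax6 among them, ran from 138 to 1179 in DBA/2J at 4 months, 49.9 to 528 at 9 months and 220 to 1219 with nicotinamide. Their part in the result was not tested.

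Among the 28 pairs of members, 2 passed a permutation test in the 16 DBA/2J libraries of block 2 by both measures. Optn and Gas7 rose together (r = 0.743, rho = 0.697, adjusted p = 0.0195 and 0.0439), with r = 0.744 without the 2 libraries farthest from the median of Optn. These 16 libraries are those that split into 7 of lower and 9 of higher rod sums, between which Optn did not overlap. Gas7 also rose with the rod markers there (r = 0.804). Whether Optn and Gas7 moved together within either set was not tested. Gas7 and Six6 ran opposite ways (r = -0.736, rho = -0.691, adjusted p = 0.0195 and 0.0439), with r = -0.703 without the 2 farthest. This pair, too, was not tested within the sets of lower and higher rod sums. None of the 28 pairs passed among the 20 libraries of 4 months.

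Of 32 further mouse orthologs of human glaucoma genes tested for age in DBA/2J, 1 rose and 6 fell, near the 22.4% of all genes. Pax6 is described above. Loxl1, the elastin crosslinking enzyme tied to exfoliation glaucoma, was higher by 1.01 ± 0.31 (adjusted p = 0.0173 by limma) at a mean of 3.597 against 1.02, and Col11a1 was lower by 0.80 ± 0.27 (adjusted p = 0.0281) at 1.17 against 2.75. The call of Col11a1 was kept in 7 of 10 fits that left out 1 library of 4 months. Within block 3 the age value of Loxl1 was -0.07 (adjusted p = 0.969) and that of Col11a1 -0.37 (adjusted p = 0.817). With nicotinamide 4 of 33 rose and 1 fell, near the 15.1% of all genes called, with Angpt1, the ligand of the Tie2 receptor, higher by 1.08 ± 0.29 (adjusted p = 0.0116) and Loxl1 lower by 1.26 ± 0.35 (adjusted p = 0.0134). In the strain comparisons and with age in D2-Gpnmb+ limma called 0 genes in each of the 8 lists, with 1 to 11 per list at an unadjusted p under 0.05. edgeR also called 0 between the strains and DESeq2 0 to 4 per list, while with age in D2-Gpnmb+ edgeR called 0 to 10 and DESeq2 1 to 11.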

How the data were processed

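RNA sequencing of sorted cells gave 61 libraries in 5 groups. Per the submitters' processing notes, TopHat2 2.0.7, Bowtie2 2.0.6, HTSeq and the mm10 build were used, and the roles and settings of these tools are not given in the sources used here. The table the authors deposited holds a normalised read count signal per gene and library; its normalisation and any filter on low genes are not given in the sources used here. Within each library all positive values (100%, tolerance 0.05) were whole multiples of the value of 1 read, so reads were recovered. The table lists 15171 names, and the 22 that read as calendar dates were dropped. Columns name the group and a library number but not the sample, so libraries are matched to groups only.

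The main test was limma 3.58.1 (R 4.3.3) with trend and robust variance on log2(value + 1), over genes that reached a value of 1 in enough libraries to fill the smaller group, with Benjamini-Hochberg adjustment over all genes and a threshold of 0.05. Fold changes are on that scale and understate changes of low genes. Alternatives were edgeR 4.0.16 (quasi-likelihood) and DESeq2 1.42.0 on recovered reads, TMM, scaling to total reads, pseudocounts of 0.5 and 2, no filter, block as covariate, single blocks, and leaving out each library of groups of up to 10. Correlations used log2(value + 1) and 100000 permutations. Lengths are unions of exons of GENCODE M21, and the promoter sequences are from RefSeq. Genes named from the lists are the 3 with the smallest adjusted p that passed, and the genes most like a member are the 3 with the highest Spearman correlation. The 8 members and all lists were chosen with earlier results of these data known, and the tests within block 1, between blocks 1 and 3, and within the rod clusters were chosen after seeing the data.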

Additional observations from a re-analysis of the deposited data

Results flagged for a closer look

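Each of the 48 sets of values of 1 member in 1 group of 4 to 10 libraries was searched for a library far from the rest, and 2 were found, where chance gives about 1 in 20. Optn in D2-Gpnmb+ at 9 months had its highest library, number 9, at 45.03, while the other 8 lay between 14.2 and 24.4. The gap was 0.67 of the whole range, above Dixon's critical value of 0.493 for 9 libraries. That library was 1 of the 2 block 2 libraries of its group and had the highest rod sum, 30238, beside 798 to 10944 in the other 8. The part of either in its Optn level was not tested. Abca1 in DBA/2J at 4 months had its highest library, number 10, at 177.8, while the others lay between 74.1 and 122.3, a gap of 0.535 of the range against a critical value of 0.466 for 10 libraries.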

How the results depend on the processing

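With TMM scaling, no filter, or a pseudocount of 0.5 or 2, all 48 member fold changes kept their sign and side of the threshold. The number of members called with age in DBA/2J, 2, was 1 after scaling to total reads (17.3% of all genes called). It was 0 with block as covariate (0.0589%) and 0 within block 3 (0.263%). As each 4-month library was left out it was 1 to 2 (17.1% to 21.2%). With age in D2-Gpnmb+ 0 became 1 by edgeR (11.6%) and 1 by DESeq2 (16.4%), and 0 to 1 with a 9-month library left out (0% to 15.9%). With nicotinamide 0 became 1 by edgeR (16.3%) and 1 by DESeq2 (21.1%). In the interaction 0 became 1 after scaling to total reads (1.52%), and between the strains at 9 months 0 became 2 within block 1 (12.3%). For the strain effect of block 1 against block 3, 0 became 1 by edgeR (0.303%) and 0 to 1 with a library left out (0% to 1.17%). Where no construction of the alternative shows it, the cause was not tested.

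Scaled to total reads, the strain values at 4 months were 0.25 for Optn, 0.10 for Tbk1, 0.11 for Gas7, 0.14 for Abca1 and 0.13 for Cav1, where the median of all genes was 0.24. The age values in D2-Gpnmb+ were 0.205 for Optn, 0.11 for Tbk1, 0.25 for Atxn2, 0.094 for Gas7, 0.24 for Tmco1 and 0.083 for Abca1, where the median of all genes was 0.31, and the interaction values -0.091 for Tbk1, -0.14 for Tmco1 and -0.054 for Abca1. By edgeR and DESeq2, Cav1 between the strains at 4 months was 0.0033 and 0.0072, and with nicotinamide Optn was -0.072 and -0.053 and Tbk1 -0.038 and -0.017. Between the strains at 9 months Abca1 was -0.14 within block 1. Within block 2 Optn was -0.13, Tbk1 -0.22, Gas7 -0.23, Tmco1 0.39 and Cav1 0.035, and within block 3 Atxn2 was 0.019 and Gas7 -0.35.

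Both within block 3 and with block as covariate, the age values in DBA/2J were -0.13 for Optn, -0.20 for Gas7, -0.35 for Tmco1, -0.33 for Cav1, 0.24 for Ccdc47, 0.17 for Ddx3x, 0.16 for G3bp2, -0.069 for Loxl1, -0.37 for Npc2, -0.19 for Rax, -0.041 for Wasf2 and -0.079 for Wasf3. In D2-Gpnmb+ they were 0.0026 for Gas7, 0.14 for Tmco1 and -0.038 for Cav1. With nicotinamide they were -0.43 for Tbk1, -0.026 for Atxn2, 0.22 for Tmco1, 0.35 for Cav1, -0.16 for Ccdc47, -0.022 for Ddx3x, -0.22 for G3bp2, 0.27 for Npc2 and -0.023 for Rb1cc1. Within block 3 the interaction was -0.20 for Gas7 and -0.49 for Tmco1.

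As each 4-month library was left out, the sign turned for the strain value of Optn at 4 months (-0.071 to 0.054). The sign also turned for the age value of Abca1 in DBA/2J (-0.0043 to 0.13). As each nicotinamide library was left out, the sign turned for the nicotinamide value of Tbk1 (-0.0078 to 0.042). Within block 3 each 9-month water library was left out. The sign turned there for age in D2-Gpnmb+ in Gas7 (-0.20 to 0.22), Cav1 (-0.36 to 0.40) and Six6 (-0.080 to 0.10), and for age in DBA/2J in Optn (-0.25 to 0.0097). It also turned for nicotinamide in Atxn2 (-0.11 to 0.017), and for strain in Atxn2 (-0.024 to 0.10) and Six6 (-0.17 to 0.074). In the interaction it turned in Atxn2 (-0.059 to 0.069), Gas7 (-0.42 to 0.0046) and Cav1 (-0.73 to 0.026). No paired analysis was possible because the table's columns carry library numbers that cannot be matched to single samples. Block 3 holds 3 water libraries of each strain at 9 months, which limits what its tests can call.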
